A study of Homo sapiens with 12 samples.

Results

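MCAM and 8 other cell adhesion genes were followed through KDM3A knockdown in rhabdomyosarcoma (RMS) cells. The 9 genes, out of 65975 gene identifiers in the expression table, were taken by symbol. They are the immunoglobulin-type molecules MCAM, ALCAM, L1CAM, NCAM1, ICAM1, CADM1 and CADM4, the hyaluronan receptor CD44 and the cadherin CDH11. Their measured values played no part in that rule, although earlier results of these data were known when the set was drawn up.

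KDM3A is a histone demethylase that removes methyl groups from lysine 9 of histone H3, and the study asked which genes depend on it in 2 kinds of RMS. RD is a cell line of the fusion-negative subtype (FN-RMS), and Rh30 is a cell line of the fusion-positive subtype (FP-RMS), in which a PAX gene is joined to FOXO1. Polyadenylated RNA was sequenced from 4 groups of 3 libraries, named RD Scramble, RD KDM3A-sh2, Rh30 Scramble and Rh30 KDM3A-sh2. Values are FPKM, fragment numbers scaled to transcript length and library size, so levels are per length and may be set side by side between genes. All 4 groups carried a lentiviral shRNA and had been selected with puromycin, and the control groups carried the Scramble shRNA. Knockdown rested on a single KDM3A shRNA, whose sequence is not given in the sources used here, and direct action of this shRNA on other transcripts was not tested. RD cells were grown in DMEM and Rh30 cells in RPMI, and each subtype was represented by 1 line, so subtype, donor, line and medium cannot be told apart. Whether replicate libraries were grown as separate cultures is not stated in the labels or Methods, and the p-values therefore measure the spread between these libraries. The names of all 3 Rh30 Scramble libraries end in 1, whereas those of each other group end in 1, 2 and 3. What this number stands for is not given.

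Cell adhesion molecules of the immunoglobulin type hold cells together through stacked immunoglobulin domains outside the cell and pass signals through short tails inside it. MCAM (CD146) is a receptor of this family that is found on endothelial, smooth muscle and melanoma cells and is known for its part in cell migration and in the passage of tumor cells through vessel walls. NCAM1 (CD56) is a customary marker of the myogenic lineage and of RMS, and cadherins join cells through calcium-dependent contacts that are tied to catenins within the cell.

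Changes are given as differences in log2(FPKM + 1), KDM3A-sh2 minus Scramble, which understates the change of genes near 1 FPKM. They were tested with limma over all genes averaging 1 FPKM or more, and a gene was called at a Benjamini-Hochberg adjusted p below 0.05. A permutation test of 1 gene with 3 libraries against 3 cannot give an exact p below 0.1, so calls rest on the fit across all genes. Summed FPKM per library ran from 1198300 to 1379197, and 17473 to 17983 genes reached 1 FPKM. The number of reads behind each value is unknown, and relative depth, read from the steps between low values, lay between 0.861 and 1.183 times that of the median library. KDM3A itself, 33.5 ± 2.5 FPKM in RD Scramble (SD, n = 3), was at 36.3% of the Scramble mean with KDM3A-sh2 in RD and at 47.6% of it in Rh30. Of 7 muscle lineage markers, 6 in RD and 5 in Rh30 reached 1 FPKM, and MYF5 was at or near 0 in every library. Their summed level was higher with KDM3A-sh2 in both lines, at 2601.7 to 2724.6 against 2097.0 to 2312.9 FPKM for RD and 2669.4 to 2706.7 against 2244.4 to 2487.0 FPKM for Rh30, but single markers differed in direction. In RD DES (796 and 932 FPKM) and CHRNA1 (1070 and 1440 FPKM) had higher means with KDM3A-sh2, and MYOD1, MYOG, PAX3 and PAX7 had lower ones. In Rh30 MYOD1 (770 and 930 FPKM), MYOG (691 and 1020 FPKM) and PAX3 had higher means, and DES and CHRNA1 had lower ones. The Rh30 value of PAX3 may include reads of a PAX-FOXO1 fusion transcript, which FPKM per gene cannot keep apart. The part of these markers in the results below was not tested.

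MCAM was lower with KDM3A-sh2 in both lines, and the drop was larger in Rh30. In RD the Scramble libraries held 74.3, 72.9 and 72.5 FPKM of MCAM and the KDM3A-sh2 libraries 51.1, 50.4 and 50.7 FPKM. In Rh30 the Scramble libraries held 100.1, 104.9 and 99.3 FPKM and the KDM3A-sh2 libraries 45.6, 39.2 and 40.9 FPKM. Every knockdown library was below every Scramble library of its line, and the 3 replicates of each group lay close together. The RD mean went from 73.2 ± 0.934 to 50.7 ± 0.377 FPKM (SD, n = 3), 69.3% of Scramble, and the log2 difference was -0.52 (standard error 0.03, limma adjusted p = 7.27e-05). The Rh30 mean went from 101.4 ± 2.99 to 41.9 ± 3.33 FPKM, 41.3% of Scramble, with a log2 difference of -1.26 (standard error 0.06, limma adjusted p = 9.1e-05). The difference between the lines was itself past the threshold, at -0.74 with a 95% interval from -0.89 to -0.58 (limma interaction, adjusted p = 3.06e-05). Over 14 other settings in each line and 19 for the interaction, every adjusted p of MCAM was below 0.05. Under Scramble the order of the lines was the opposite of that under knockdown: Rh30 was higher by 0.46 in log2 (limma adjusted p = 2.9e-05), whereas the highest Rh30 KDM3A-sh2 library was below the lowest of RD KDM3A-sh2.

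**Figure D1:**
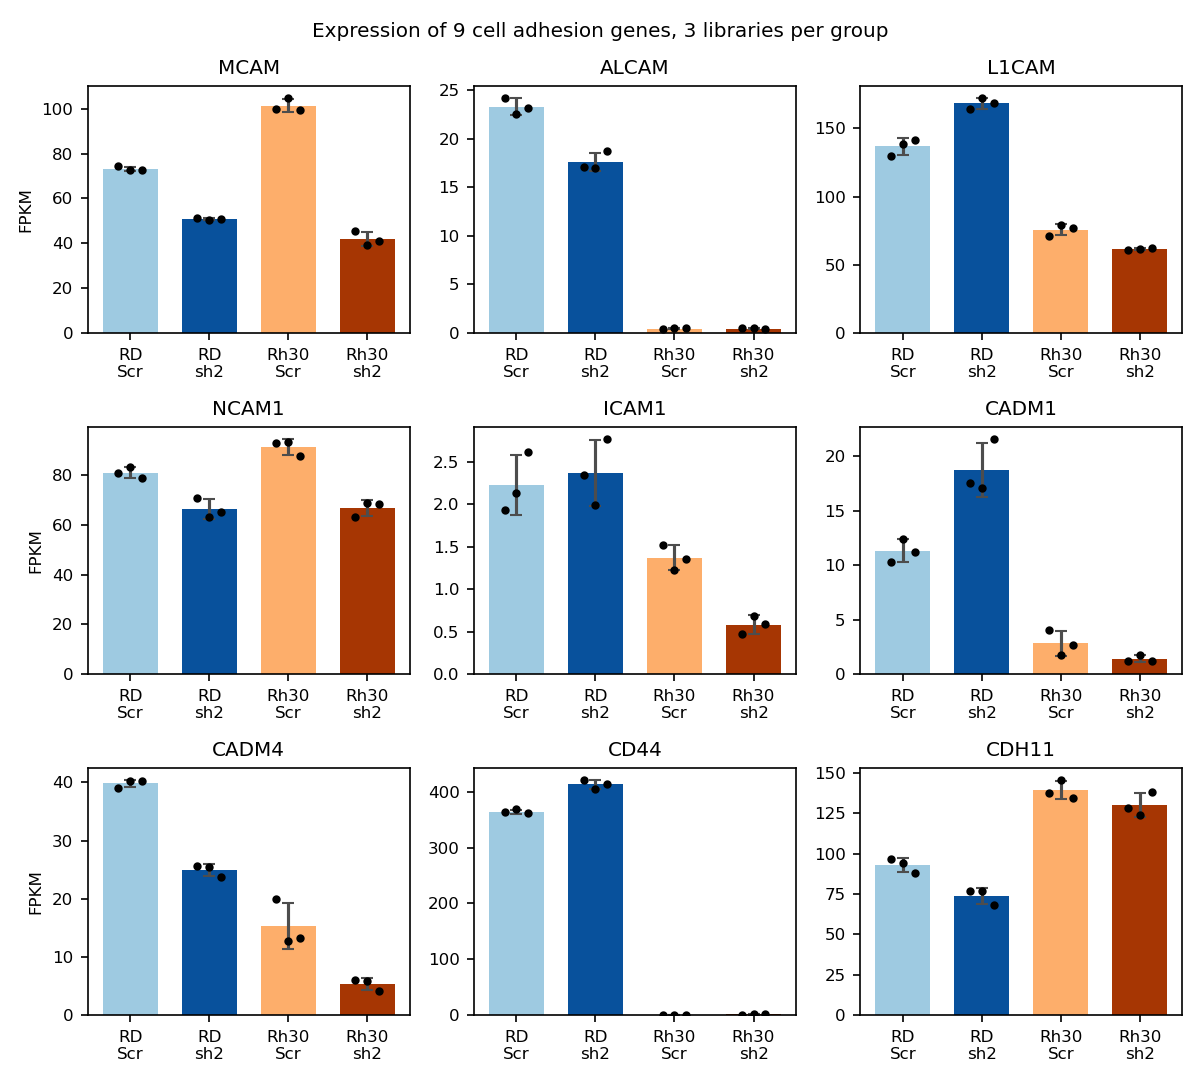
Expression of the 9 adhesion genes in FPKM (vertical axes, each from 0) in the 4 groups, where Scr is Scramble and sh2 is KDM3A-sh2, with bars for the mean of 3 libraries, error bars for the SD and dots for the libraries. The MCAM means were 73.2 and 50.7 FPKM in RD, 101.4 and 41.9 FPKM in Rh30, L1CAM moved in opposite directions in the lines, and ALCAM and CD44 were close to 0 in Rh30.

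MCAM lies on chromosome 11 (119308529 to 119321521, minus strand, GRCh38), with 16 exons and 1 protein-coding transcript in GENCODE 29. CBL overlaps it on the opposite strand and did not exceed 13.3 FPKM in any library. The libraries were directional, but the strand setting of the counting is not given in the sources used here, so reads of CBL cannot be kept apart from those of MCAM with certainty.

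ETS1, a transcription factor that the study places between KDM3A and MCAM, was also lower with KDM3A-sh2. In RD its mean was 74.8 ± 2.41 and then 31.9 ± 0.61 FPKM, and in Rh30 118.5 ± 1.93 and 66.2 ± 0.539 FPKM (SD, n = 3). The log2 differences were -1.20 in RD and -0.83 in Rh30 (limma adjusted p = 1.24e-05 and 5.41e-05). In RD 42.7% of the ETS1 level was left and in Rh30 55.9%. On this relative scale Rh30 had the smaller loss of ETS1 and of KDM3A and the larger loss of MCAM. Each of these differences between lines was tested in log2. Rh30 minus RD was 0.37 for ETS1 (limma interaction, adjusted p = 0.000197), 0.37 for KDM3A (adjusted p = 0.0388) and -0.74 for MCAM. In FPKM, by the means above, ETS1 fell by more in Rh30 than in RD. The part of ETS1 in the MCAM change was not tested.

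GGAAG, 1 form of the letters that ETS factors recognise, occurs on either strand 1 time in the 250 bases before the MCAM start in RefSeq (GRCh38.p14, minus strand, chr11:119317131-119317380). The stretch is shown because MCAM and ETS1 fell together, and the match is in capitals. GENCODE 29 places the outer end of MCAM upstream of the RefSeq start, so this window lies within the gene as annotated there.

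MCAM promoter: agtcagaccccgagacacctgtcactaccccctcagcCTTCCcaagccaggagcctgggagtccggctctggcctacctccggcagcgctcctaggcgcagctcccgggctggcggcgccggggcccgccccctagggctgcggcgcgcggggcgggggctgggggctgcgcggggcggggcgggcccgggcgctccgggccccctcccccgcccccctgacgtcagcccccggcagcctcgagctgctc

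These letters are common, present in 65.1% of 35116 RefSeq promoter windows on either strand, and all 6 members with an entry (MCAM, ALCAM, L1CAM, ICAM1, CADM4 and CD44) hold them. Another form, CCGGAA, on either strand, is in 14.5% of the windows, and no other form was counted. Among these 6 members CCGGAA was found 4 times in the window of ICAM1 and in no other. Binding was not measured here.

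Of the 9 members tested in RD, 5 were lower with KDM3A-sh2 (MCAM, CADM4, ALCAM, CDH11 and NCAM1) and 3 were higher (CADM1, L1CAM and CD44). Of all 17988 genes tested in RD, 19.5% were called lower and 21.6% higher. In Rh30 6 members passed the filter on low values, 4 of them were lower (CADM4, MCAM, NCAM1 and L1CAM) and none was higher, against 13.2% lower and 15.3% higher among 17803 genes. The remaining 3 (ALCAM, ICAM1 and CD44) had means under 1 FPKM over the 6 Rh30 libraries and were not tested there. The median log2 difference of the members was -0.29 in RD and -0.54 over the 6 tested in Rh30, beside medians of 0.007 and 0.031 over all genes. Scramble and knockdown libraries did not overlap for 8 of 9 members in RD, where this held for 53.4% of all genes tested, and for 4 of the 6 tested members in Rh30, where it held for 45.8%.

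**Figure D2:**
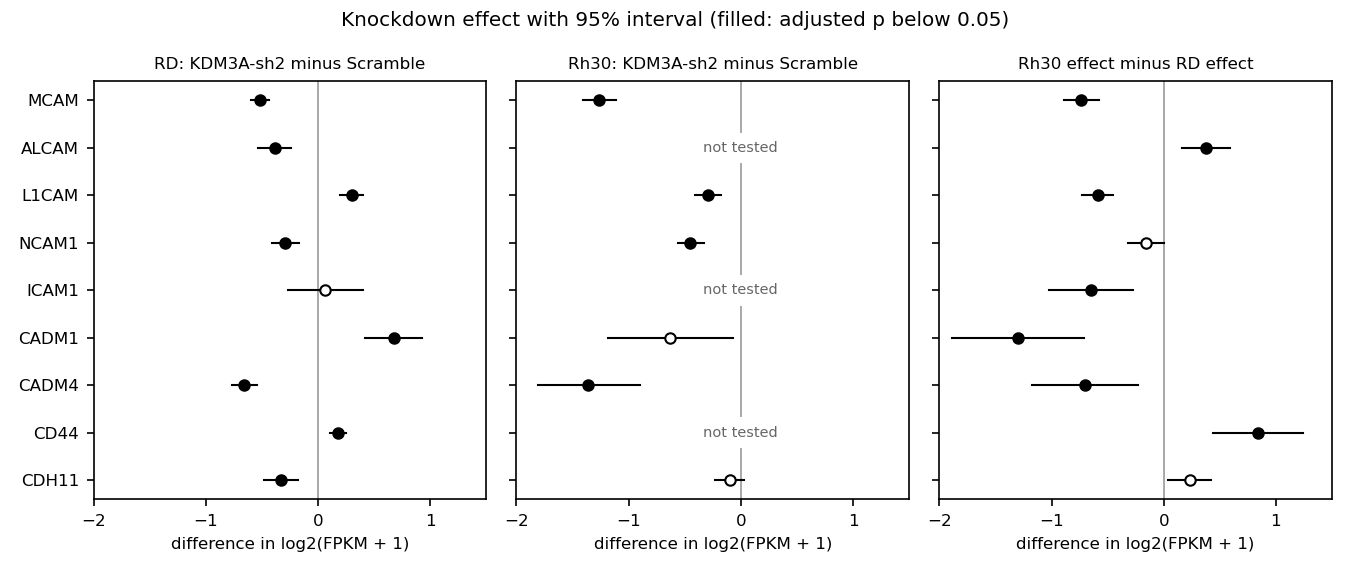
Difference in log2(FPKM + 1) between KDM3A-sh2 and Scramble (horizontal axis) for the 9 genes in RD, in Rh30 and as the Rh30 difference minus the RD difference. Lines are 95% intervals of the limma fit and filled points have an adjusted p below 0.05. MCAM and CADM4 lie furthest to the left in Rh30, at -1.26 and -1.36, and L1CAM lies on opposite sides of 0 in the lines.

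ALCAM (CD166), a close relative of MCAM that binds itself and CD6, was a gene of RD cells. RD Scramble libraries held 24.2, 22.5 and 23.1 FPKM and RD KDM3A-sh2 libraries 17.1, 17.0 and 18.7 FPKM. The groups did not overlap, and the log2 difference was -0.38 (standard error 0.06, limma adjusted p = 0.00253). In Rh30 it was listed between 0.375 and 0.495 FPKM in every library, with the ranges of the groups overlapping, and without the filter its difference was -0.01 (limma adjusted p = 0.962). The Rh30 minus RD difference of 0.38 (adjusted p = 0.0155) thus set a drop in RD against values near the floor in Rh30, and with a pseudocount of 0.1 its adjusted p was 0.114.

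NCAM1, which carries polysialic acid in developing muscle and nerve, was lower in both lines by a smaller amount than MCAM. RD Scramble libraries held 81.0, 83.1 and 78.9 FPKM and RD KDM3A-sh2 libraries 70.7, 63.0 and 65.0 FPKM. Rh30 Scramble libraries held 93.0, 93.4 and 87.5 FPKM and Rh30 KDM3A-sh2 libraries 63.2, 68.8 and 68.2 FPKM. There was no overlap in either line. The log2 differences were -0.29 in RD and -0.45 in Rh30 (standard error 0.05 each, limma adjusted p = 0.00455 and 0.00129). Their difference was -0.16, with a 95% interval from -0.32 to 0.00 (adjusted p = 0.124), and it passed the threshold when libraries were scaled to the same summed FPKM (-0.22, adjusted p = 0.0426). An antisense transcript, AP000802.1, overlaps NCAM1 and reached 6.22 FPKM at most.

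L1CAM, a neural adhesion molecule of the same superfamily that binds itself and integrins, moved in opposite directions. RD Scramble libraries held 129.7, 138.7 and 141.8 FPKM and RD KDM3A-sh2 libraries 164.1, 172.2 and 168.7 FPKM. In Rh30 the Scramble libraries held 71.1, 79.0 and 76.7 FPKM and Rh30 KDM3A-sh2 libraries 60.8, 61.6 and 62.1 FPKM. All RD knockdown libraries were above, and all Rh30 knockdown libraries below, the Scramble libraries of their line. The log2 differences were 0.30 (standard error 0.04, limma adjusted p = 0.00182) in RD and -0.29 (standard error 0.05, limma adjusted p = 0.00583) in Rh30. Between the lines they differed by -0.59 (limma interaction, adjusted p = 7.39e-05), and each of these calls held under the other settings run.

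ICAM1, the receptor for leukocyte integrins, was low in both lines. The RD Scramble libraries held 1.93, 2.13 and 2.62 FPKM and RD KDM3A-sh2 libraries 2.34, 1.99 and 2.77 FPKM, which overlapped. The RD difference was 0.06 with a 95% interval from -0.27 to 0.40 (limma adjusted p = 0.757), and it fell to 0.00 or below when RD Scramble replicate 1 or RD KDM3A-sh2 replicate 3 was left out. Rh30 Scramble libraries held 1.52, 1.23 and 1.36 FPKM and Rh30 KDM3A-sh2 libraries 0.473, 0.688 and 0.587 FPKM. These groups did not overlap, but the mean over the 6 libraries, 0.978 FPKM, was just under the filter. Without the filter the Rh30 difference was -0.58 (limma adjusted p = 0.0169), and the Rh30 minus RD difference was -0.65 (adjusted p = 0.0165). With a pseudocount of 0.1 the latter was -1.20, and without a log, in FPKM, it was -0.934 and not called (adjusted p = 0.0616).

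CADM4 and CADM1 are nectin-like molecules that bind one another and other members of their family across cell contacts, and in RD they moved in opposite directions. RD Scramble libraries held 39.1, 40.2 and 40.2 FPKM of CADM4 and RD KDM3A-sh2 libraries 25.6, 25.4 and 23.7 FPKM. Rh30 Scramble libraries held 19.9, 12.8 and 13.3 FPKM and Rh30 KDM3A-sh2 libraries 5.94, 5.91 and 4.18 FPKM. The groups were apart in both lines, and 1 Rh30 Scramble library was well above the other 2. The log2 differences were -0.66 in RD (standard error 0.05, limma adjusted p = 0.000104) and -1.36 in Rh30 (standard error 0.19, limma adjusted p = 0.00332). In Rh30 34.7% of the Scramble mean was left, the lowest share among the members tested, and the call was lost when FPKM were compared without a log (adjusted p = 0.0579). The Rh30 minus RD difference of CADM4 was -0.70 (adjusted p = 0.0325), a call that was lost without the filter (adjusted p = 0.0714) and in 6 of the 12 fits without 1 library. The latter were the fits without any of the 3 RD Scramble libraries (adjusted p = 0.0616, 0.0579 and 0.059), RD KDM3A-sh2 replicate 1 or 2 (0.0645 and 0.0626) or Rh30 KDM3A-sh2 replicate 3 (0.0643).

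CADM1 was higher with KDM3A-sh2 in RD, where Scramble libraries held 10.3, 12.4 and 11.2 FPKM and KDM3A-sh2 libraries 17.5, 17.1 and 21.6 FPKM. The groups did not overlap and the log2 difference was 0.68 (standard error 0.11, limma adjusted p = 0.00256). In Rh30 the Scramble libraries held 4.03, 1.78 and 2.65 FPKM and the KDM3A-sh2 libraries 1.23, 1.79 and 1.22 FPKM. The lowest Scramble and the highest knockdown library met, and the difference of -0.63 (95% interval from -1.18 to -0.07) did not pass the threshold (limma adjusted p = 0.0886). Left without Rh30 Scramble replicate 1 it was -0.41, and without Rh30 Scramble replicate 2 it was -0.84 and was called (adjusted p = 0.0393), so single libraries decided it. In 1 fit over all 12 libraries it was called as well (adjusted p = 0.0262). The difference between the lines, -1.30 (limma interaction, adjusted p = 0.00439), was called in all 19 other limma settings.

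CD44, the hyaluronan receptor, was the most abundant member in RD and was near 0 in Rh30. Its level was 363.6, 368.5 and 361.3 FPKM in the RD Scramble libraries and in the RD KDM3A-sh2 libraries 421.1, 405.0 and 414.2 FPKM. The groups did not overlap, and the log2 difference of 0.18 was small (standard error 0.03, limma adjusted p = 0.00275). In 1 fit over all 12 libraries its adjusted p was 0.278. Rh30 Scramble libraries held 0.0201, 0.121 and 0.0101 FPKM and Rh30 KDM3A-sh2 libraries 0.639, 1.56 and 1.31 FPKM. All 3 knockdown libraries were above all 3 Scramble libraries, although the mean over the 6, 0.61 FPKM, was below the filter. Without the filter the Rh30 difference was 1.02 (limma adjusted p = 0.0225). The Rh30 minus RD difference was 0.84 (limma interaction, adjusted p = 0.00562) and 2.89 with a pseudocount of 0.1, whereas without a log it turned to -47.9 FPKM (adjusted p = 0.000284). No fold is given, since the Rh30 Scramble values were 1.0, 2.0 and 12.0 times the lowest of them and may stand for very few fragments.

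Other genes that were high in RD and near 0 in Rh30 Scramble rose beside CD44 in Rh30 KDM3A-sh2. By a rule chosen after the values were seen, genes with at least 100 FPKM in each RD Scramble library and at most 0.5 FPKM in each Rh30 Scramble library were listed, leaving out the Y chromosome. There were 5 (CD44, NPTX2, NT5E, HTR2B and PRAME), and all 5 were higher in every Rh30 KDM3A-sh2 library than in any Rh30 Scramble library. The limit of 0.5 FPKM was set on the Scramble side of this comparison and favours a rise. Of all genes tested in Rh30, 45.8% had no overlap in either direction. That share covers genes averaging 1 FPKM or more in Rh30, which none of these 5 did. How often genes near 0 rise was not worked out. For NT5E the margin was narrow, 0.187 against 0.184 FPKM. The Rh30 KDM3A-sh2 libraries held 0.155, 0.317 and 0.378% of the RD KDM3A-sh2 mean of CD44, and 0.224, 0.431 and 0.51% of that of PRAME. For HTR2B the shares were 0.421 to 0.475%, for NPTX2 0.108 to 0.128% and for NT5E 0.108 to 0.201%. The reverse rule gave 6 genes, and 1 of them (NTN5) was higher in every RD KDM3A-sh2 library. The part of this pattern in the CD44 values was not tested.

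**Figure D3:**
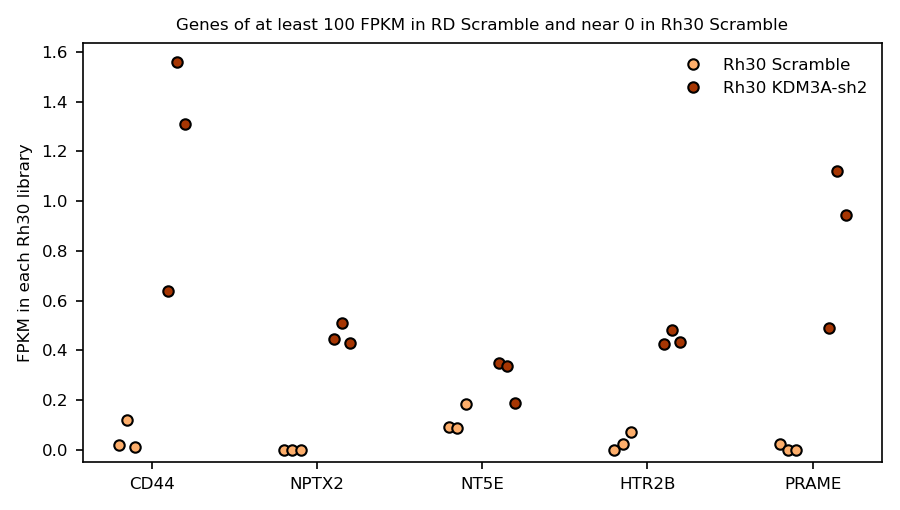
FPKM in the 3 Rh30 Scramble and 3 Rh30 KDM3A-sh2 libraries (vertical axis, 1 point per library) for the 5 genes with at least 100 FPKM in RD Scramble and at most 0.5 FPKM in Rh30 Scramble. For each gene the 3 KDM3A-sh2 points lie above the 3 Scramble points, and CD44 reached 1.56 FPKM.

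CDH11, a cadherin of mesenchymal cells, was the highest member in Rh30. The RD Scramble libraries held 96.7, 94.1 and 88.0 FPKM and RD KDM3A-sh2 libraries 76.6, 76.9 and 68.0 FPKM, with no overlap. Its RD difference was -0.33 (standard error 0.06, limma adjusted p = 0.00543). Rh30 Scramble libraries held 137.8, 145.8 and 134.8 FPKM and Rh30 KDM3A-sh2 libraries 128.3, 123.8 and 138.2 FPKM, which overlapped. The Rh30 difference was -0.10, with a 95% interval from -0.23 to 0.03 (limma adjusted p = 0.199). The difference between the lines was 0.23 (95% interval from 0.04 to 0.42) and did not pass the threshold (limma interaction, adjusted p = 0.0679).

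In all, 7 of the 9 members had a knockdown effect that differed between the lines. For 5 the effect was more negative in Rh30 (MCAM, CADM1, CADM4, ICAM1 and L1CAM) and for 2 more positive (ALCAM and CD44), against 13.4% and 14.4% of 18517 genes tested. The median of the members was -0.59, beside 0.024 over all genes. The more positive effects belonged to genes near 0 in Rh30. ALCAM, ICAM1 and CD44 averaged 0.452, 0.978 and 0.61 FPKM over the Rh30 libraries, under the filter there. They entered the interaction test through their RD levels (20.4, 2.3 and 389 FPKM), and the median of -0.59 includes them.

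Without knockdown the lines differed in all 9 members. The 6 lower in Rh30 Scramble than in RD Scramble were CD44 (-8.44), ALCAM (-4.06), CADM1 (-1.73), CADM4 (-1.34), L1CAM (-0.85) and ICAM1 (-0.44), and the 3 higher were CDH11 (0.58), MCAM (0.46) and NCAM1 (0.17). These log2 differences had limma adjusted p values from 2.25e-09 to 0.0147, and 39.6% of 18357 genes were lower and 35.0% higher in Rh30. The NCAM1 call was lost when libraries were scaled to the same summed FPKM (0.06, adjusted p = 0.227). CD44 and ALCAM averaged 0.0505 and 0.456 FPKM in Rh30 Scramble and passed the filter through RD, which fixed the direction of their calls. Their sizes depend on the setting: over 14 others CD44 ran from -11.32 to -8.40 and ALCAM from -5.39 to -4.01.

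The order of the levels differed between the lines and between the shRNAs. RD Scramble ran CD44, L1CAM, CDH11, NCAM1, MCAM, CADM4, ALCAM, CADM1, ICAM1 from high to low, and no neighbours overlapped. With KDM3A-sh2 CADM1 moved above ALCAM, and these 2 overlapped, as did CDH11 and NCAM1. Rh30 Scramble ran CDH11, MCAM, NCAM1, L1CAM, CADM4, CADM1, ICAM1, ALCAM, CD44, again with no overlap. In Rh30 KDM3A-sh2 MCAM went from rank 2 to rank 4, below NCAM1 and L1CAM and with no overlap, while CADM1, CD44, ICAM1 and ALCAM at the bottom overlapped as neighbours. The summed level of the 9 genes was 819.7 to 834.4 FPKM in RD Scramble and 829.0 to 846.2 FPKM in RD KDM3A-sh2, where CD44 made up much of it, and it went from 416.2 to 439.5 FPKM down to 303.7 to 317.1 FPKM in Rh30. The share of MCAM in that sum was 8.74 to 9.05% and then 6.04 to 6.08% in RD, and 23.4 to 23.9% and then 12.9 to 14.9% in Rh30. These are bulk libraries, in which fewer cells with a transcript and less of it per cell cannot be told apart.

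Markers of cell types that also carry adhesion molecules were low, apart from LAPTM5 in Rh30 and CD68 in RD. Of 5 endothelial markers only TEK had group means of 1 FPKM or more. The sum of the 5 was 2.05 to 2.51 FPKM in RD and 3.85 to 4.75 FPKM in Rh30. Of 4 leukocyte markers PTPRC and CD3E were at or near 0. LAPTM5 carried the Rh30 sum, which was 81.6 to 86.2 FPKM with Scramble and 42.4 to 42.5 FPKM with KDM3A-sh2, and CD68 most of the RD sum, 17.6 to 20.3 and 23.1 to 25.5 FPKM. Of 4 epithelial markers EPCAM alone had group means of 1 FPKM or more, and only in Rh30.

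Over the 12 libraries the genes with the pattern most like MCAM were NKAIN4 (Pearson r = 0.986), TNNT2 (0.973), TWF1 (0.968), KIAA1191 (0.967) and VOPP1 (0.963), among 11016 genes averaging 10 FPKM or more. The r is on log2(FPKM + 1) and describes mainly the 4 group means, which the libraries of a group share. NKAIN4, which encodes a protein that interacts with the sodium pump, had means of 27.7, 10.0, 42.8 and 5.33 FPKM in RD Scramble, RD KDM3A-sh2, Rh30 Scramble and Rh30 KDM3A-sh2. TNNT2, cardiac troponin T, had 437, 374, 575 and 288 FPKM, and TWF1, an actin-binding protein, had 62.6, 40.4, 70.1 and 34.7 FPKM. These genes were chosen for their likeness to MCAM, so a shared pattern follows from the choice. VOPP1 had its lowest mean in RD KDM3A-sh2 (35.5 FPKM, against 35.9 FPKM in Rh30 KDM3A-sh2).

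Other adhesion genes and their partners were read from 4 lists of 30, 18, 24 and 6 genes. The counts below stand beside 19.5% lower and 21.6% higher calls among all genes in RD and 13.2% and 15.3% in Rh30, and the medians beside 0.007 and 0.031. Of the other immunoglobulin-type molecules 23 were tested in RD, 8 were higher and none lower, with a median of 0.14. In Rh30 18 were tested, 7 were lower and 2 higher, with a median of -0.05. NECTIN1 (listed as PVRL1), a nectin of adherens junctions, was higher in both lines, 25.9 ± 1.78 and then 47.8 ± 1.28 FPKM in RD, 67.7 ± 4.99 and then 141 ± 5.14 FPKM in Rh30 (SD, n = 3, limma adjusted p = 8.81e-05 and 0.000144). PVR, a nectin-like receptor, and NRCAM, a relative of L1CAM, rose in RD by 0.60 and 0.59 in log2 (limma adjusted p = 6.41e-05 and 0.000763). NECTIN2 and JAM3, a tight-junction molecule, were lower in Rh30, at -0.71 and -0.64 (limma adjusted p = 0.000357 and 0.00012).

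Among the other cadherins 6 were tested in RD, 2 were lower and 3 higher (all genes 19.5% and 21.6%), with a median of 0.17. In Rh30 8 were tested, 4 were lower and 1 higher, with a median of -0.20. CDH15, the cadherin of muscle precursors (M-cadherin), was lower in both lines, 72.4 ± 4.33 and then 47.3 ± 1.76 FPKM in RD, 285 ± 24 and then 240 ± 10.3 FPKM in Rh30 (limma adjusted p = 0.000268 and 0.0332). CDH13, which lacks a cytoplasmic tail, was higher in RD (0.46, limma adjusted p = 0.000372) and lower in Rh30 (-0.24, limma adjusted p = 0.00819). CDH24 was lower in RD by -0.68 and CDH19 higher in Rh30 by 0.82 (limma adjusted p = 0.000213 and 0.000195).

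Of the ligands and cytoplasmic linkers 22 were tested in RD, with 7 lower and 6 higher (all genes 19.5% and 21.6%) and a median of 0.02. In Rh30 20 were tested, with 11 lower and 3 higher (all genes 13.2% and 15.3%) and a median of -0.13. FN1, the matrix protein fibronectin, went from 1540 ± 41.9 to 2960 ± 55.1 FPKM in RD (0.94, limma adjusted p = 1.24e-05). In the same line ANK2, an ankyrin that anchors L1-type molecules to the cytoskeleton, rose by 0.79 and CTNND1, p120 catenin, fell by 0.63 (limma adjusted p = 0.000234 and 7.51e-05). ANK2 and CTNND1 went the same ways in Rh30, by 0.38 and -0.57 (limma adjusted p = 0.00802 and 0.000192). In Rh30 the laminin chain LAMC1 was lower, from 194 ± 5.01 to 115 ± 1.56 FPKM (-0.75, limma adjusted p = 7.34e-05). LAMA4, a chain of the vascular laminin that MCAM binds, and WNT5A, a Wnt ligand that acts with MCAM, both stood at -0.62 in Rh30 (limma adjusted p = 0.0202 and 0.000571). LAMC1, LAMA4 and WNT5A were also lower in RD, at -0.31, -0.22 and -0.34 (limma adjusted p = 0.00106, 0.0104 and 0.0141).

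Of 6 sheddases and polysialyltransferases, the enzymes that cut adhesion molecules or add polysialic acid to NCAM1, 4 were higher in RD (all genes 21.6%) and none lower, with a median of 0.19. In Rh30 5 were tested, 3 were lower (all genes 13.2%) and none higher, with a median of -0.26. MMP14, a membrane-bound matrix metalloproteinase, was higher in RD, from 111 ± 2.34 to 144 ± 2.86 FPKM, and lower in Rh30, from 125 ± 7.06 to 104 ± 1.32 FPKM (limma adjusted p = 0.000255 and 0.00859). ADAM10, which sheds the outer part of CD44 and L1CAM, was lower in Rh30 (-0.36, limma adjusted p = 0.00141) and higher in RD (0.17, limma adjusted p = 0.012). ADAM17 was higher in RD (0.29, limma adjusted p = 0.00222).

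**Figure D4:**
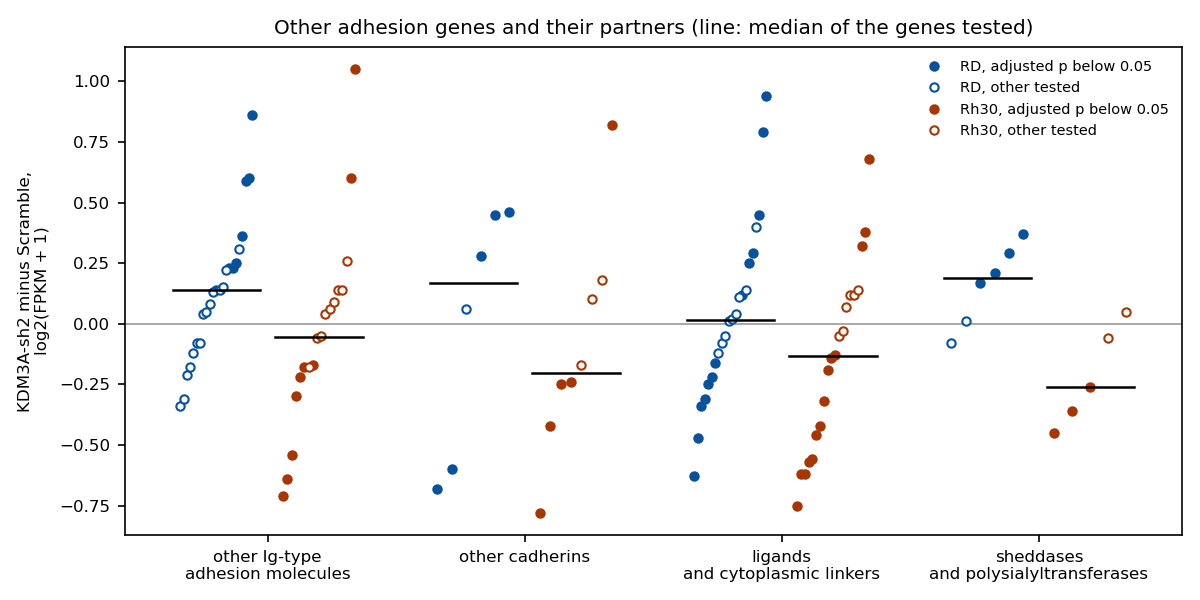
Difference in log2(FPKM + 1) between KDM3A-sh2 and Scramble (vertical axis) for each gene tested in 4 lists of adhesion genes and partners, in RD (blue) and Rh30 (red), with the median as a line and filled points for an adjusted p below 0.05. The list medians lie between 0.02 and 0.19 for RD, and between -0.26 and -0.05 for Rh30.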

How the data were processed

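The authors deposited a table of FPKM, a value per gene and library without a log, for 12 libraries. Per the labels, poly(A) RNA went into directional libraries, and the submitters' processing notes name GSNAP, SAMtools, Cufflinks and GRCh38. The annotation release is not given in the sources used here, and Methods and labels give different read lengths.

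The table lists 66095 entries for 65975 identifiers. Where an identifier was repeated (117 cases), only its highest entry by mean was used, which dropped 120 entries. The value 999999999, present in 17 genes, was taken as a placeholder and set to missing. FPKM are not counts, so no count model was used.

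Groups came from the labels. limma 3.58.1 in R 4.3.3 (lmFit, eBayes with trend) was run on log2(FPKM + 1) for genes averaging 1 FPKM or more in the libraries compared, two-sided, with Benjamini-Hochberg adjustment over all genes tested. Comparisons were KDM3A-sh2 against Scramble in each line, their difference (interaction, 12 libraries) and Rh30 Scramble against RD Scramble. The fit was tested on simulated data. Positions are from GENCODE 29 and promoters from RefSeq, by symbol or identifier. Python 3.11.15 with pandas 2.3.3, NumPy 2.4.6, SciPy 1.17.1 and matplotlib 3.10.9 served for the rest.

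The members and lists were chosen with earlier results of these data known. Genes named were the 9 members, KDM3A, ETS1, the 5 genes most like MCAM, and in each wider list and line the 3 called genes with the largest change, an average of 10 FPKM or more and no overlap. Of the Rh30 sheddases 2 met this. Some items that were selected are not reported here. Alternatives were a pseudocount of 0.1, no filter, a filter of 10 FPKM in 1 library, scaling to the same summed FPKM or upper quartile, ANOVA on unlogged FPKM, 1 fit over 12 libraries, no trend, a replicate block and leaving out each library.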

Additional observations from a re-analysis of the deposited data

Results flagged for a closer look

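The knockdown effect differed between the lines for 7 of the 9 genes, by the limma interaction test (Rh30 effect minus RD effect, in log2). Of all 18517 genes tested, 13.4% had a more negative and 14.4% a more positive effect in Rh30. The difference was -1.30 for CADM1, -0.74 for MCAM, -0.70 for CADM4, -0.65 for ICAM1, -0.59 for L1CAM, 0.38 for ALCAM and 0.84 for CD44. For L1CAM each line was past the threshold on its own side of 0, and for MCAM and CADM4 both lines were lower. The CADM4 difference was past the threshold in 12 of 19 other settings. With a pseudocount of 0.1 the difference was 2.89 for CD44 and -1.20 for ICAM1, and the ALCAM call was lost (limma interaction, adjusted p = 0.114). On unlogged FPKM (ANOVA) the difference turned direction for CD44 (-47.9 FPKM) and CADM4 (4.89 FPKM). ALCAM, ICAM1 and CD44 were under the filter in Rh30 alone.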

How the results depend on the processing

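Of 536 values recomputed under the alternatives, 517 kept their direction and their side of the threshold, 12 were no longer past it, 3 came past it and 4 turned direction. The cause was not tested for any of them. Members called numbered 7 to 8 in RD, 3 to 6 in Rh30, 5 to 8 for the interaction and 8 to 9 between the Scramble groups. The 6 in Rh30 came without the filter, where members below it were tested too. In the main fits the shares of all genes called lower and higher were 19.5% and 21.6% in RD and 13.2% and 15.3% in Rh30. For the interaction they were 13.4% and 14.4%, and between the Scramble groups 39.6% and 35.0%. Without 1 library each, genes called in Rh30 numbered 3215 (without Rh30 KDM3A-sh2 replicate 1) to 4071, against 5066 with all. The RD value of ICAM1 ran from -0.02 to 0.15 without 1 library, and was 0.00 without RD Scramble replicate 1. On unlogged FPKM (ANOVA) the interaction turned for CADM4 (4.89 FPKM) and CD44 (-47.9 FPKM). With a pseudocount of 0.1 the interaction of CD44 was 2.89. Scaling to the same summed FPKM moved the median of all genes between the Scramble groups by -0.103, and the share of higher calls from 46.9 to 41% there and from 51.7 to 40.6% for the interaction. Libraries with the same replicate number showed no clear shared deviation (correlations of deviations from -0.128 to 0.063). These values cannot tell whether such libraries were grown or processed in parallel. With the number as a replicate block 6259 genes were called in RD, 3421 in Rh30, 4780 for the interaction and 13544 between the Scramble groups. FPKM carry no read counts, so the precision of members near 0 in Rh30 (CD44, ALCAM) is unknown.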

Other observations

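Between the Scramble groups the wider adhesion lists were lower in Rh30 at the median, as the 9 members were. Of 21 other immunoglobulin-type molecules tested 13 were lower and 6 higher in Rh30 (median -0.46), of 9 other cadherins 5 and 4 (median -0.27), of 22 ligands and cytoplasmic linkers 15 and 5 (median -0.62), and of 6 sheddases and polysialyltransferases 3 and 2 (median -0.33). Of all genes tested 39.6% were lower and 35.0% higher in Rh30, with a median of -0.039, and no list was tested against them. The filter averaged both lines, so genes near 0 in 1 line entered through the other, which fixed their direction. SPP1 (358 FPKM in RD and 0.743 FPKM in Rh30) and EMB (85.2 and 0.0512 FPKM) entered through RD. CDH19 (0.0687 and 11.2 FPKM) and CDH6 (0.0119 and 3.19 FPKM) entered through Rh30. The counts and medians include such genes.

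LAPTM5, a lysosomal membrane protein best known from leukocytes, was at 83.9 FPKM in Rh30 Scramble and 42.2 FPKM in Rh30 KDM3A-sh2, with PTPRC and CD3E at or near 0. PAX3 and PAX7, regulators of muscle precursors, went from 16.1 to 8.16 FPKM and from 25.2 to 14.3 FPKM in RD, while PAX3 was at 55.5 and 76.8 FPKM in Rh30. The LAPTM5, PAX3 and PAX7 values were singled out after they were seen and were not tested.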
